A study of Homo sapiens with 18 samples.

Results

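DP-3 is described as the 3D cell-printed tissue of the human osteosarcoma (OS) cell line Saos-2, which the labels spell Soas-2 and give as WT. The labels give it on day 1 and on day 14 of culture after printing. The comparison was made of the 6 libraries that the labels and column names give as DP-3, 3 of day 14 and 3 of day 1, out of 18 libraries in the series. In both groups the cells had been mixed into a bioink of methacrylated gelatin and alginate, extruded, cross-linked with blue light and calcium chloride, and kept in DMEM-F12 with fetal bovine serum, and the labels give the day as the difference between them. All libraries come from 1 established cell line. The question was which programs were lower and which were higher after culture of the printed tissue. The other 4 groups, all labelled day 14, are used only as a scale for single genes: D-2 (2D cells), D-3 (3D cells), IT (tumor tissue isolated and kept in vitro) and FIT (fresh tumor grown in mice).

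Printing exposes cells to shear, light, radicals from the photoinitiator, detachment and a new gel. Cells answer such insults through a few well-known programs. The integrated stress response raises the translation of the transcription factor ATF4, which drives genes of amino acid uptake and of growth arrest. NRF2 drives genes against oxidants, HSF1 drives the cytosolic heat shock proteins, and the unfolded protein response drives the chaperones of the endoplasmic reticulum (ER). In a gel, cells also adhere, pull on the matrix and remodel it, which the co-activator YAP with its partner TEAD and the actin-regulated factor SRF report at the level of transcription. Proliferation is read from genes of DNA replication and mitosis.

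The processed data hold, for each of 50119 genes, an estimated count and an FPKM, in which fragments are normalized to gene length and sequencing depth. The estimated counts summed to between 50327345 and 50913046 in the day 1 libraries and between 60000387 and 77174403 in the day 14 libraries. About 4 of them stand for 1 read pair. On day 1, between 24694 and 24791 genes reached 0.1 FPKM, against 18664 to 19249 genes on day 14. Genes of the mitochondrial genome took 4.73% to 4.76% of the counts on day 1 and 4.34% in day 14 replicates 1 and 2, but 9.22% in day 14 replicate 3, which stands apart from the other two in this respect. The libraries are of bulk RNA, so fewer cells with a transcript and less of it per cell cannot be told apart.

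The spread between libraries of one group was measured first. Over genes with a single transcript, the variance between 2 day 1 libraries was 2.05 to 2.33 times the counting variance at 20 to 100 read pairs and 2.16 to 3.52 times above 3000 read pairs, so that it grew little with the level of the gene. Among the pairs of DP-3 day 14 libraries the ratio above 3000 read pairs was 36.7 to 152.6, and among the pairs of the other 4 groups it was 7.33 to 331.3. Over all genes the day 1 libraries were not the closest. Pearson's r was taken of log2 FPKM, with 0.1 added, across all 50119 genes listed, which are not independent replicates. It was 0.945 to 0.946 between day 1 libraries and 0.9565 to 0.986 in the other 5 groups. Genes at or near 0 FPKM are part of these values. Across genes with a mean of at least 10 FPKM, r was 0.959 to 0.963 on day 1 and 0.9600 to 0.978 in D-2. No 2 libraries held identical counts. Since the day 1 libraries differed by about the noise of sampling in the genes with a single transcript, they were counted as 1 sample with their counts summed, and day 14 as 3 samples. Values of all 3 day 1 libraries are printed below, but their range is no measure of the spread between cultures and no SD is given for them. Nothing in the labels says whether the day 14 libraries came from separate prints, so p-values measure the spread between these libraries, which may be technical.

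**Figure D1:**
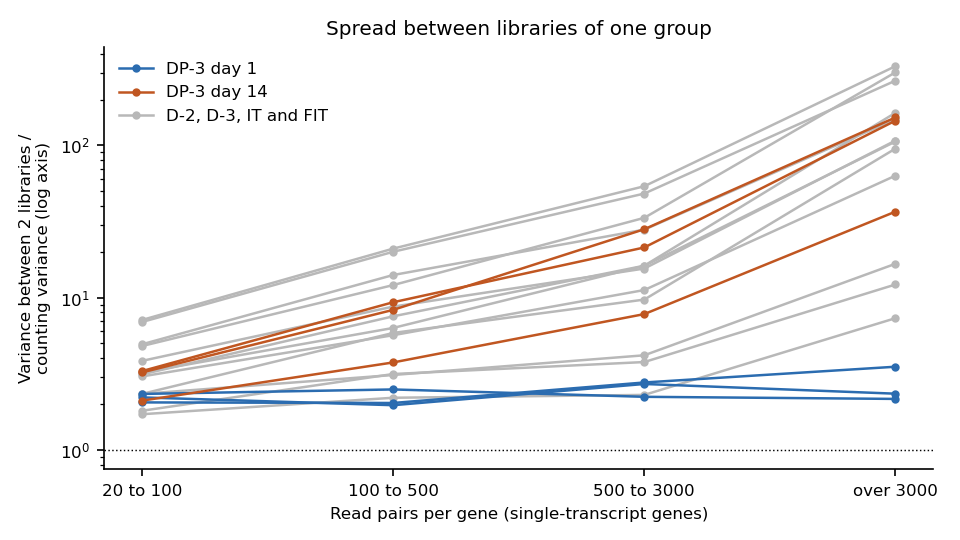
The spread between libraries of one group, for every pair of libraries. The vertical log axis gives the variance between 2 libraries divided by the variance that counting alone gives (dotted line at 1), and the horizontal axis gives bins of read pairs per gene. The DP-3 day 1 lines stay flat, between 1.97 and 3.52 over all bins, while those of DP-3 day 14 climb to between 36.7 and 152.6.

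With day 1 counted once, edgeR's quasi-likelihood test called 0 of the 20774 genes tested at an adjusted p below 0.05 and a fold change of at least 2, which is 0.0% of them. The smallest adjusted p of edgeR was 0.0983, although 3225 genes, or 15.5%, had an unadjusted p below 0.05. DESeq2, which the submitters' notes name, called 328 genes as upregulated on day 14 and 363 as downregulated with the same 4 samples, that is 1.58% and 1.75% of the genes tested. If the 3 day 1 libraries are entered as separate samples, edgeR called 375 upregulated and 1196 downregulated genes, or 1.81% and 5.76%, but in that fit the spread of day 1 is near the counting noise. No gene is called a DEG here. Genes are described as higher or lower on day 14 by their values and by the edgeR log2 fold change with its SE. Day 1 as 1 sample has no measured spread, so the SE and both tools' calls assume that it varies like day 14. Of the genes named below, edgeR's adjusted p was lowest for DDIT4, at 0.0983, then 0.111 for NGFR and 0.183 for HAS2, POSTN and CXCL8, and it was at least 0.214 for the others given with a log2 fold change.

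For the counts below, a gene stands apart where the edgeR log2 fold change was at least 1 in size and all 3 day 14 FPKM lay on one side of all 3 day 1 FPKM. By this description 497 genes (2.39% of those tested) stood higher on day 14 and 2504 (12.1%) stood lower. Of the lower genes, 1558 were not protein-coding. Among 10749 protein-coding genes with a mean FPKM of at least 1 on a day, 254 (2.36%) stood higher and 380 (3.54%) lower. The balance turned with the level of the gene. Of 2777 protein-coding genes with a mean below 1 FPKM over the 2 days, 83 stood higher and 657 lower, whereas of 3722 with a mean of at least 10 FPKM, 112 stood higher and 43 lower. Of 4409 genes of the class of long non-coding and other RNAs, 23.7% stood lower, and of 143 snRNAs, 26.6%. The larger number of weakly expressed genes detected on day 1 goes with the same libraries, and its part in the lower counts was not tested.

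**Figure D2:**
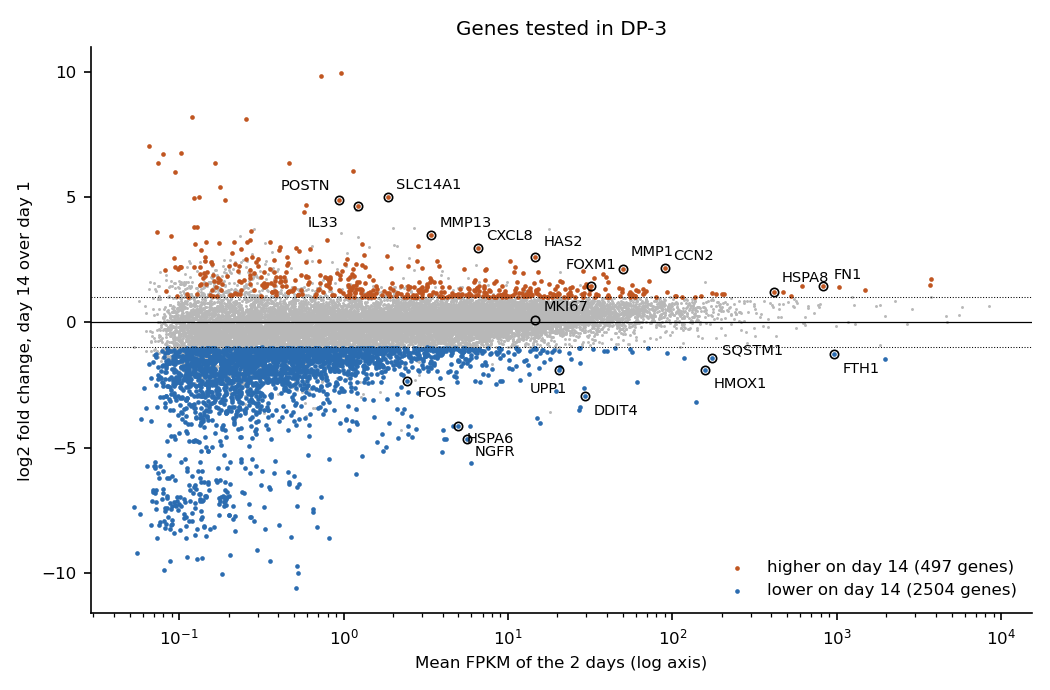
All 20774 genes tested, with the mean FPKM of the 2 days on the horizontal log axis and the edgeR log2 fold change of day 14 over day 1 on the vertical axis. Coloured points are the 497 genes that stood higher and the 2504 that stood lower, the dotted lines mark a 2-fold difference, and circles mark genes named in the text. Most lower genes lie below 1 FPKM, and the strongly expressed lower genes include HMOX1, SQSTM1 and FTH1.

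Scaling matters for these values. The fold changes use the TMM scaling of edgeR, and among protein-coding genes above 1 FPKM on both days they lay 0.27 (log2) above the ratio of the deposited FPKM. Scaling by the total count instead moved the median over all genes by -0.27. Under that scaling 281 genes stood higher and 3308 lower. The overlap of FPKM is the same under both scalings, and the fold changes moved down. The 281 therefore had to lie among the 497, and the 2504 had to remain lower, so neither is a check of these genes. Lists are set beside the median of all genes tested, which was -0.06, and the counts of a list under total count scaling are given where they differ. The shares over all genes tested, 2.39% higher and 12.1% lower, are the scale for the counts of each list. Among protein-coding genes with a mean FPKM of at least 1 on a day they were 2.36% and 3.54%. In all, 602 genes of 35 programs were tested, of which 63 (10.5%) stood higher and 41 (6.81%) lower. The lists were chosen with earlier results of these data known, so these shares are no test of the programs. Genes shared between lists are counted in each list.

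**Figure D3:**
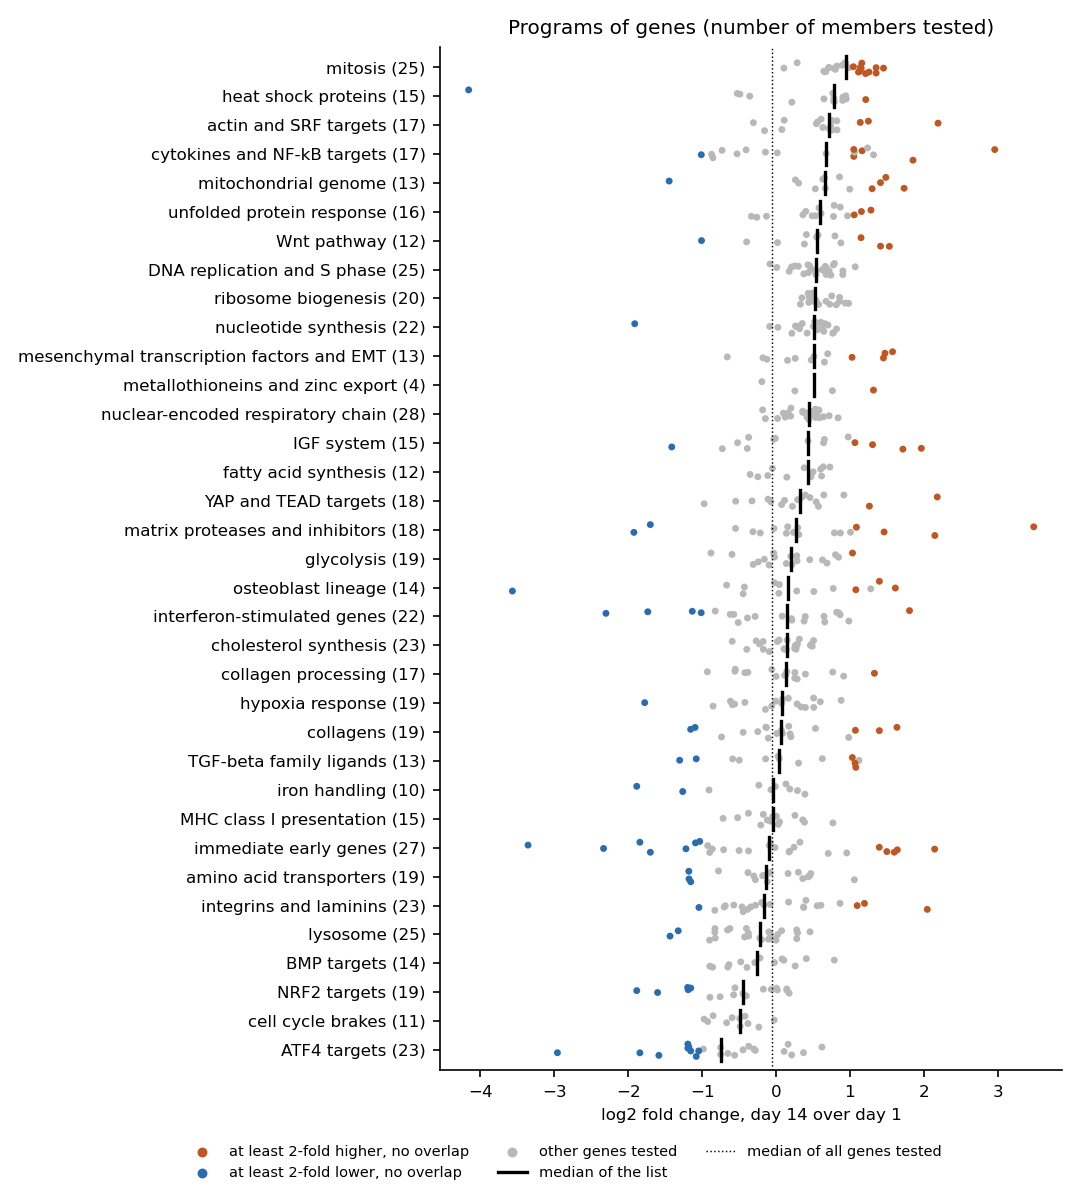
The edgeR log2 fold change (horizontal axis) of every tested member of the 35 programs, one program per line with the number of members tested. Vertical bars mark the medians of the lists and the dotted line the median of all genes tested, at -0.06. Mitosis has the highest median, 0.94, and the ATF4 targets have the lowest, -0.75.

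Many targets of ATF4 were lower on day 14. Of 23 genes tested, 9 stood lower (12 under total count scaling) and 0 higher, and the median log2 fold change was -0.75. It was positive in 5 of the 23. The strongest was DDIT4, an inhibitor of the mTORC1 growth pathway, at chr10:72273924-72276036. It had 55.6, 52.3 and 52.7 FPKM in the day 1 libraries and 6.12, 6.2 and 4.81 FPKM in the day 14 libraries. Its mean on day 14 was 5.71 ± 0.778 FPKM (SD, n = 3), a log2 fold change of -2.96 ± 0.18 (SE). No day 14 library came near the day 1 level.

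DDIT3 and ATF3, stress-induced factors of this pathway, were lower too, while ATF4 itself had a log2 fold change of -0.37 and ATF5 one of 0.37. DDIT3, which encodes CHOP, a factor tied to cell death under prolonged stress, had 26.03, 30.2 and 21.8 FPKM on day 1 and 7.29, 8.36 and 5.97 on day 14 (log2 fold change -1.58 ± 0.23). ATF3, a factor induced by many stresses, had 2.98 to 3.83 FPKM on day 1 and 0.565 to 0.874 on day 14 (-1.84 ± 0.34). In both genes the days did not overlap, but for ATF3 this was a condition of naming it. The cystine transporter was lower in both of its chains. SLC7A11, its light chain, had 7.46 to 8.24 FPKM on day 1 and 2.32 to 3.52 on day 14, and SLC3A2, the heavy chain shared with other amino acid transporters, had 73.03 to 89.7 and 28.004 to 33.02 FPKM. Their log2 fold changes were -1.15 ± 0.23 and -1.18 ± 0.16. Not every target shared the size of the difference. ASNS, which makes asparagine, had a mean of 9.24 FPKM on day 1 and 4.85 ± 1.3 on day 14, with a log2 fold change of -0.65 ± 0.34. Of 19 amino acid transporters tested, 3 stood lower (4 under total count scaling) and 0 higher. SLC7A11 and SLC3A2, already counted among the ATF4 targets, are among these 3. For scale, 12.1% of all genes tested stood lower, and 3.54% of protein-coding genes with a mean FPKM of at least 1 on a day.

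Some NRF2 targets were lower as well. Of 19 NRF2 targets tested, 5 stood lower (7 under total count scaling) and 0 higher, with a median log2 fold change of -0.45. SLC7A11, already counted among the ATF4 targets, is among these 5, and so is HMOX1, which is counted again under iron handling. HMOX1, the enzyme that degrades heme, at chr22:35380361-35390293, had 248, 280.2 and 250.04 FPKM on day 1 and 72.5, 49.2 and 53.0 FPKM on day 14. The mean on day 14 was 58.2 ± 12.5 FPKM (SD, n = 3) and the log2 fold change was -1.88 ± 0.24. OSGIN1, a growth inhibitor induced by oxidants, had 8.38 to 9.12 FPKM on day 1 and 2.27 to 2.73 on day 14 (-1.60 ± 0.20). Of 10 genes of iron handling tested, 2 stood lower, HMOX1 and FTH1, and 0 higher, with a median of -0.04. Under total count scaling 3 stood lower. Over all genes tested the lower share was 12.1%, and over protein-coding genes with a mean FPKM of at least 1 on a day 3.54%. FTH1, the heavy chain of the iron store ferritin, had 1418, 1423 and 1446 FPKM on day 1 and 532, 420.4 and 523 FPKM on day 14 (-1.26 ± 0.23). FTH1 has processed pseudogenes that can share its reads. NQO1, a quinone reductase and a classical NRF2 target, had 47.1 to 61.8 FPKM on day 1 and 28.2 to 46.9 FPKM on day 14, a log2 fold change of -0.42 ± 0.32.

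SQSTM1, a receptor of selective autophagy that both NRF2 and ATF4 are known to drive, had 263, 276 and 257 FPKM on day 1 and 92.8, 82.5 and 69.6 FPKM on day 14 (-1.43 ± 0.20). It was one of 2 of the 25 lysosome and autophagy genes tested that stood lower, and none stood higher. Among all genes tested 12.1% stood lower, so this count is no result about the list. The median of that list was -0.22, and under total count scaling 6 of its genes stood lower. UPP1, which splits uridine into uracil and ribose phosphate, was the only one of 22 genes of nucleotide synthesis and salvage to stand apart. It had 32.2 to 34.6 FPKM on day 1 and 5.81 to 8.15 FPKM on day 14 (-1.91 ± 0.20), while 20 of the 22 genes had a positive log2 fold change and the median was 0.52.

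**Figure D4:**
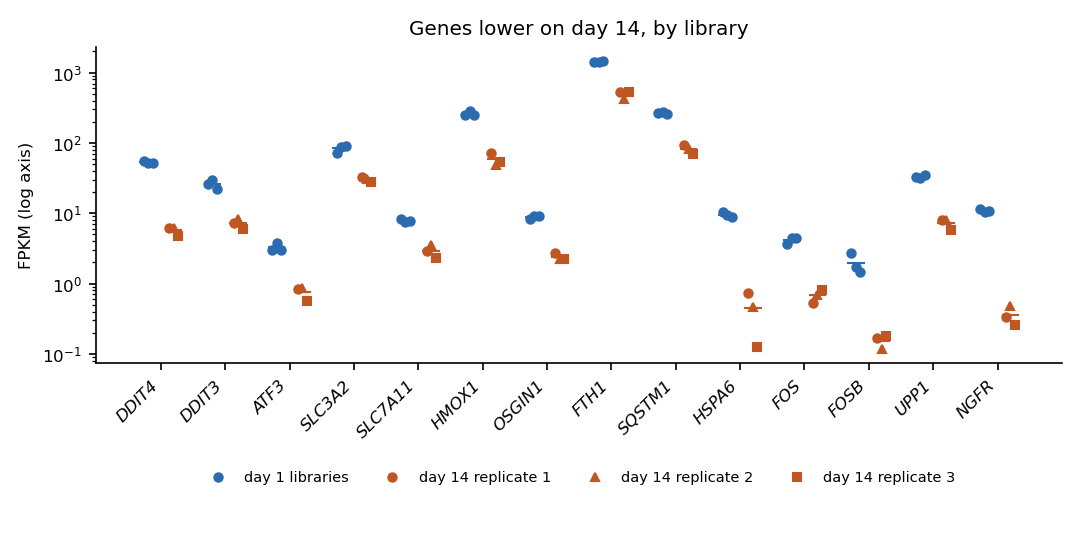
FPKM (vertical log axis) of 14 genes that were lower on day 14, in each of the 6 libraries. Circles in blue are the day 1 libraries, the orange symbols are the 3 day 14 replicates, and short lines are means. In every gene shown all day 14 points lie below all day 1 points, for example 49.2 to 72.5 against 248 to 280.2 FPKM for HMOX1. Genes taken for the size of their difference had to be without overlap, so this gap is no check of them.

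Heat shock proteins lay on both sides. The median log2 fold change of the 15 genes tested was 0.78, with 1 gene higher and 1 lower. HSPA6, a strictly inducible member of the HSP70 family, at chr1:161524540-161526894, had 10.3, 9.42 and 8.76 FPKM on day 1 and 0.74, 0.467 and 0.124 FPKM on day 14 (-4.16 ± 0.75). HSPA8, the constitutive HSP70 protein of the cytosol, had 261, 266 and 322 FPKM on day 1 and 583, 584 and 467 FPKM on day 14 (1.21 ± 0.23). Under total count scaling HSPA8 no longer reached 2-fold, and 0 genes of the list stood higher. HSPA1A, the stress-inducible HSP70 with a near-identical neighbour, had about 182 FPKM in every day 1 library and 92.6 to 124 FPKM on day 14, a log2 fold change of -0.52 ± 0.22. HSPA6 and HSPA1A share stretches with close copies, so how their reads were split is uncertain.

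The promoters of HSPA6 and HSPA8 are shown because the 2 genes stood on opposite sides and both hold the core of the heat shock element, the site of HSF1. The sequences are RefSeq's on GRCh38.p14, 5′ to 3′ on the strand of the gene, ending at the base before the start of transcription. Capitals mark GAANNTTC, searched on both strands. HSPA6 is shown at chr1:161524350-161524539 (+ strand) and HSPA8 at chr11:123062137-123062376 (- strand).
HSPA6: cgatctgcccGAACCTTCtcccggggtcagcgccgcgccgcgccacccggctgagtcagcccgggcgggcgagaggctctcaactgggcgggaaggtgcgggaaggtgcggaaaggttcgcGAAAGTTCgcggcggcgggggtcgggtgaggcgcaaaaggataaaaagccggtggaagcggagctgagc
HSPA8: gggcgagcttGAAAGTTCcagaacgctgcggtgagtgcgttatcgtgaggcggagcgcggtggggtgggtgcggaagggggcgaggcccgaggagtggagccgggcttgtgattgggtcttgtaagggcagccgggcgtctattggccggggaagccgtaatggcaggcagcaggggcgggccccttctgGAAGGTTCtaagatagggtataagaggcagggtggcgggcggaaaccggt
Each stretch holds 2 matches. The element was found in 11 of the 14 heat shock genes with a promoter window of 300 bases, both genes that stood apart among them. Of all 27305 genes with a window, 8.21% held it.

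Several ER chaperones were higher on day 14. Of 16 genes of the unfolded protein response tested, 3 stood higher and 0 lower, and the median was 0.60 (0.33 under total count scaling, where 1 gene stood higher). MANF, a secreted ER stress protein, had 39.9, 41.3 and 38.8 FPKM on day 1 and 78.2, 88.0 and 76.2 FPKM on day 14 (1.28 ± 0.18). HSP90B1, the HSP90 protein of the ER, had 124 to 140.3 FPKM on day 1 and 222 to 268 FPKM on day 14 (1.16 ± 0.22). PDIA4, which forms disulfide bonds, had 74.5 to 79.2 and 121 to 149.6 FPKM (1.06 ± 0.21). HSPA5, the master chaperone BiP, had 234 to 242 FPKM on day 1 and 321 to 381 FPKM on day 14, less than 2-fold apart but without overlap (0.87 ± 0.23). XBP1, the transcription factor of the same response, had 45.6 to 63.9 FPKM on day 1 and 26.6 to 44.7 FPKM on day 14 (-0.33 ± 0.33). The chaperones and the CHOP gene DDIT3 thus lay on opposite sides of 0.

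The promoter of HSP90B1 is shown at chr12:103930206-103930409 (+ strand) with the ER stress response element in capitals, written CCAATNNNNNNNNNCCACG and searched on both strands.
HSP90B1: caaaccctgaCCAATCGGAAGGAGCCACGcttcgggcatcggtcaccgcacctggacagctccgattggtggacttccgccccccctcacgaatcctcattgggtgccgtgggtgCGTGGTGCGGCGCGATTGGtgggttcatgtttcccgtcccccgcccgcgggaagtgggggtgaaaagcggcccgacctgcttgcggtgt
It holds 2 matches. The element was found in the windows of 6 of the 16 genes of this list, CALR, CRELD2, HSP90B1, HSPA5, PDIA6 and XBP1. Of all genes with a window, 0.0916% held it. XBP1, with its negative log2 fold change, is among them. Of the 3 genes that stood higher, 1 held it.

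Immediate early genes, which serum, stretch and stress switch on within minutes, split into genes that were lower and genes that were higher. Of 27 tested, 5 stood higher and 7 lower (10 under total count scaling), and the median was -0.09. ATF3, already counted among the ATF4 targets, is among the 7. FOS, the founding member of the AP-1 factors, had 3.71, 4.51 and 4.4 FPKM on day 1 and 0.527, 0.691 and 0.812 FPKM on day 14 (-2.33 ± 0.37). FOSB, its close relative, had 1.48 to 2.72 FPKM on day 1 and 0.118 to 0.178 FPKM on day 14 (-3.35 ± 0.39). EGR1, a zinc finger factor usually induced together with FOS, had 2.47, 2.36 and 2.14 FPKM on day 1 and 7.56, 6.24 and 11.5 FPKM on day 14 (2.15 ± 0.47). DUSP6, a phosphatase that reads out ERK activity, had 13.7 to 16.5 FPKM on day 1 and 31.0 to 37.5 FPKM on day 14 (1.40 ± 0.19). Thus FOS and EGR1 differed in opposite directions in the same libraries, with no overlap between days in either gene.

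Their promoters are shown for this contrast, EGR1 at chr5:138465333-138465478 (+ strand) and FOS at chr14:75278728-75278827 (+ strand). Capitals mark the CRE core TGACGT in both genes, on either strand, and in EGR1 also 2 CArG boxes, the site of SRF.
EGR1: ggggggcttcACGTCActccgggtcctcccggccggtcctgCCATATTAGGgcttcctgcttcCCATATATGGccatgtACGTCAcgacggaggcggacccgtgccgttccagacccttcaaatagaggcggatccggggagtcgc
FOS: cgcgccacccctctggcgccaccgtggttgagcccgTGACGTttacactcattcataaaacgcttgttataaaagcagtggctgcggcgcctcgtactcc
Within the window EGR1 holds 2 CRE cores and FOS holds 1. The CRE core was found in 8 of the 20 immediate early genes with a window and in 9.64% of all genes with a window. The CArG box was found in 2 of the 20, EGR1 and EGR2, and in 1.29% of all windows. Windows reach 250 bases before a start, and sites farther upstream were not searched. These counts therefore cannot tell whether FOS has a CArG box farther upstream.

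Some genes of mitosis were higher on day 14. Of 25 mitotic genes tested, 11 stood higher and 0 lower, all 25 had a positive log2 fold change and the median was 0.94. FOXM1, the transcription factor of the G2 and M phases, had 17.6, 21.7 and 19.1 FPKM on day 1 and 48.8, 43.0 and 40.9 FPKM on day 14 (1.45 ± 0.20). KIF20A, a kinesin of cytokinesis, had 10.6 to 14.8 FPKM on day 1 and 25.3 to 27.5 FPKM on day 14 (1.35 ± 0.18). CENPE, the kinesin of the kinetochore, had 3.49 to 3.99 and 7.28 to 8.45 FPKM (1.35 ± 0.22). CCNB1, cyclin B1, had 39.3 to 41.5 and 57.8 to 83.7 FPKM (1.13 ± 0.24).

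The marker most often used for cycling cells did not share the difference. MKI67 had 18.9, 17.9 and 9.23 FPKM on day 1 and 13.5, 16.2 and 11.6 FPKM on day 14, with overlap (0.11 ± 0.21), and its log2 fold change was -0.16 under total count scaling. The count of mitotic genes depends on scaling too. Under total count scaling 3 of the 25 genes stood higher, 24 had a positive log2 fold change and the median was 0.68, against a median of -0.32 over all genes.

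PLK1, the polo-like kinase of mitotic entry, was chosen after its values were seen because its promoter holds both motifs that mark cell cycle genes. It had 20.6, 20.6 and 20.04 FPKM on day 1 and 34.2, 35.7 and 43.0 FPKM on day 14 (1.16 ± 0.25). Its promoter is shown at chr16:23678789-23678888 (+ strand), with a CCAAT box and the cell cycle homology region (CHR, written TTTGAA) in capitals.
PLK1: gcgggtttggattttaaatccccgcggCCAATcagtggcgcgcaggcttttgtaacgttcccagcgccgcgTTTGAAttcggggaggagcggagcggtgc
A CHR was found in 13 of the 20 mitotic genes with a window and in 18.2% of all genes with a window. A CHR together with a CCAAT box was found in 12 of 20 and in 7.26% of all genes with a window. Of the 8 mitotic genes with a window that stood higher, 4 held both motifs, and MKI67, which did not, held both as well.

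No gene of DNA replication stood apart among 25 tested. Of these, 24 had a positive log2 fold change and the median was 0.54, while under total count scaling 5 were negative and the median was 0.28. PCNA, the clamp of the replication fork, had 80.4 to 85.7 FPKM on day 1 and 85.1 to 121 FPKM on day 14 (0.62 ± 0.23), and MCM2, a subunit of the replicative helicase, had 24.8 to 28.2 and 28.5 to 32.03 FPKM (0.44 ± 0.18). Of 20 genes of ribosome biogenesis tested, 0 stood apart in either direction, although all 20 had a positive log2 fold change, with a median of 0.53 (0.26 under total count scaling, with all 20 positive). NPM1, the nucleolar chaperone nucleophosmin, had 129.7 to 136 FPKM on day 1 and 175 to 240.3 FPKM on day 14 (0.94 ± 0.23).

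The brakes of the cycle lay on the other side. All 11 inhibitors and arrest genes tested had a negative log2 fold change, with a median of -0.49, but none stood apart by 2-fold, while 3 did under total count scaling. CDKN1A, the p21 inhibitor of cyclin-dependent kinases, had 14.4 to 16.3 FPKM on day 1 and 7.65 to 11.1 FPKM on day 14 (-0.38 ± 0.22). CDKN1B, the p27 inhibitor, had 14.4 to 15.7 and 7.25 to 10.5 FPKM (-0.42 ± 0.24). In both genes the FPKM did not overlap between days.

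Single targets of YAP and TEAD were much higher on day 14, but not the list as a whole. Of 18 tested, 2 stood higher and 0 lower and the median was 0.32, and under total count scaling 1 stood higher and 1 lower, with a median of 0.05. CCN2, the connective tissue growth factor and the standard readout of YAP, at chr6:131948176-131951372, had 37.8, 38.2 and 38.3 FPKM on day 1 and 127, 147 and 154 FPKM on day 14. Its mean on day 14 was 143 ± 13.8 FPKM (SD, n = 3), a log2 fold change of 2.18 ± 0.24. CCN1, the related matricellular protein, had 58.2 to 65.1 FPKM on day 1 and 85.5 to 112 FPKM on day 14 (0.92 ± 0.26). ANKRD1, a titin-binding protein and another readout, had 9.41 to 10.8 and 13.2 to 25.9 FPKM (1.26 ± 0.44). Its difference was under 2-fold without day 14 replicate 3 and under total count scaling.

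The promoter of CCN2 is shown at chr6:131951373-131951551 (- strand) with the TEAD motif GGAATG in capitals.
CCN2: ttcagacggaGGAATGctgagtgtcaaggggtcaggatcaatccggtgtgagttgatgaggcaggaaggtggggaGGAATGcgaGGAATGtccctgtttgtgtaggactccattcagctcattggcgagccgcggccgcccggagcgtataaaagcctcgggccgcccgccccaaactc
It holds 3 matches. The motif was found in 8 of the 14 genes of the list with a window, CCN2 and ANKRD1 among them, and in 16.7% of all genes with a window.

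Some genes of the contractile cytoskeleton were higher, with a wide spread between day 14 libraries. Of 17 actin and SRF targets tested, 3 stood higher and 0 lower, with a median of 0.72. ACTA2, smooth muscle actin, had 1.46, 1.29 and 1.01 FPKM on day 1 and 2.5, 3.86 and 7.84 FPKM on day 14 (2.19 ± 0.76). Day 14 replicate 3 was highest. TPM4, a tropomyosin, had 38.04 to 39.3 FPKM on day 1 and 49.2 to 105 FPKM on day 14 (1.14 ± 0.46), and TAGLN, transgelin, had 2.71 to 3.15 and 3.37 to 4.46 FPKM (0.63 ± 0.24). Under total count scaling 1 of the 17 genes stood higher.

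Matrix proteins and mesenchymal factors were in part higher. Of 13 mesenchymal and EMT genes tested, 4 stood higher (3 under total count scaling) and 0 lower, with a median of 0.51. FN1, fibronectin, the main adhesive glycoprotein of the provisional matrix, had 497, 506 and 507 FPKM on day 1 and 1067, 853 and 1518 FPKM on day 14 (1.47 ± 0.46). PRRX1, a homeobox factor of limb mesenchyme, had 8.04 to 8.51 FPKM on day 1 and 17.9 to 22.4 FPKM on day 14 (1.58 ± 0.25). SNAI2, the EMT factor Slug, had 4.78 to 6.26 and 10.2 to 17.4 FPKM (1.45 ± 0.43). TWIST1, another EMT factor, overlapped, with 5.25 to 6.21 and 4.34 to 8.72 FPKM (0.51 ± 0.41).

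Collagens gave a mixed list. Of 19 tested, 3 stood higher and 2 lower, and under total count scaling 2 stood higher and 3 lower, with the median of 0.07 turned to -0.20. COL12A1, a collagen that decorates fibrils in tissue under tension, had 1.52, 1.66 and 1.64 FPKM on day 1 and 3.35, 4.22 and 4.8 FPKM on day 14 (1.64 ± 0.30). COL1A1, the main collagen of bone, had 1.79 to 1.99 and 3.23 to 5.02 FPKM (1.40 ± 0.33). COL7A1, the anchoring fibril collagen, had 3.07 to 3.16 FPKM on day 1 and 0.95 to 1.36 FPKM on day 14 (-1.15 ± 0.23). Of 17 genes of collagen processing tested, 1 stood higher and 0 lower, and under total count scaling 1 stood higher and 1 lower, with the median of 0.13 turned to -0.14. LAMB3, a laminin chain of basement membranes, was lower too, with 76.4 to 81.5 and 30.5 to 32.4 FPKM (-1.04 ± 0.17).

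Integrins, the receptors for these proteins, lay on both sides. Of 23 integrins and laminins tested, 3 stood higher (1 under total count scaling) and 1 lower, with a median of -0.16. ITGA1, the alpha chain of a collagen receptor, had 1.37 to 1.54 FPKM on day 1 and 2.39 to 3.14 FPKM on day 14 (1.197 ± 0.26). ITGB1, the beta chain shared by most matrix receptors, had 114 to 162 and 192 to 203 FPKM (0.87 ± 0.20), and ITGA5, the fibronectin receptor chain, had 91.1 to 102 and 72.7 to 75.2 FPKM, which became a log2 fold change of -0.08 ± 0.18 after scaling.

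Matrix proteases held some of the largest differences. Of 18 proteases and inhibitors tested, 4 stood higher (3 under total count scaling) and 2 lower. MMP13, a collagenase of bone and cartilage, at chr11:102942995-102955732, had 0.576, 0.449 and 0.966 FPKM on day 1 and 7.06, 3.94 and 7.37 FPKM on day 14 (3.49 ± 0.54). MMP1, the interstitial collagenase, had 20.5, 21.6 and 21.6 FPKM on day 1 and 84.3, 95.0 and 56.3 FPKM on day 14 (2.15 ± 0.32). ADAMTS1, which cleaves proteoglycans, had 4.16 to 4.84 and 9.57 to 10.4 FPKM (1.46 ± 0.19). MMP15, a membrane-bound protease, was lower, with 20.3 to 21.6 FPKM on day 1 and 4.64 to 6.35 FPKM on day 14 (-1.70 ± 0.22). HAS2, the synthase of the matrix polysaccharide hyaluronan, is in none of the lists and had 4.59, 4.69 and 4.94 FPKM on day 1 and 25.6, 27.9 and 19.8 FPKM on day 14 (2.63 ± 0.25).

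**Figure D5:**
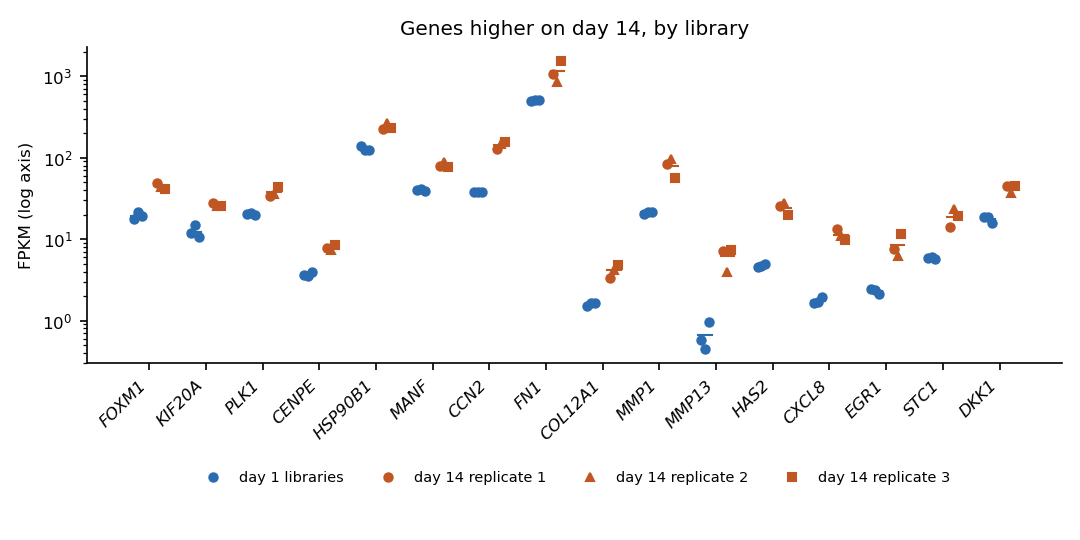
FPKM (vertical log axis) of 16 genes that were higher on day 14, in each of the 6 libraries, drawn as for the lower genes. In every gene shown all day 14 points lie above all day 1 points. As in the figure of lower genes, most were named on the condition of no overlap, so this is no check of them. The gap is widest for MMP13, at 0.449 to 0.966 against 3.94 to 7.37 FPKM, and for CXCL8, at 1.65 to 1.92 against 9.78 to 13.2 FPKM.

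Inflammatory genes differed one by one. Of 17 cytokines and NF-kB targets tested, 5 stood higher and 1 lower, with a median of 0.68, and under total count scaling 2 stood higher and 4 lower. Without day 1 replicate 3, 2 stood higher and 0 lower. CXCL8, the chemokine interleukin-8, at chr4:73740541-73743716, had 1.65, 1.68 and 1.92 FPKM on day 1 and 13.2, 11.1 and 9.78 FPKM on day 14 (2.96 ± 0.28). IL6, the cytokine interleukin-6, had 0.508 to 0.708 and 1.26 to 2.32 FPKM (1.85 ± 0.56). NFKB2, a subunit and target of NF-kB, was lower, with 19.95 to 21.6 FPKM on day 1 and 8.31 to 8.74 FPKM on day 14 (-1.01 ± 0.16).

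Interferon-stimulated genes lay on both sides and differed between the day 14 libraries. Of 22 tested, 1 stood higher and 4 lower (5 under total count scaling), and the median of 0.15 turned to -0.10 under total count scaling. Over all genes tested 2.39% stood higher and 12.1% lower. RSAD2, the antiviral enzyme viperin, had 17.4, 18.5 and 17.8 FPKM on day 1 and 5.68, 4.88 and 2.9 FPKM on day 14 (-1.73 ± 0.32). OASL, a relative of the oligoadenylate synthetases, had 36.7 to 39.5 and 11.996 to 18.7 FPKM (-1.01 ± 0.24). IFI6, a mitochondrial protein induced by interferon, had 18.04 to 22.8 FPKM on day 1 and 40.4, 106 and 31.4 FPKM on day 14 (1.81 ± 0.73), and ISG15, a ubiquitin-like modifier, had 150.2 to 162 and 90.5, 102 and 32.9 FPKM (-0.82 ± 0.54). Without day 14 replicate 3, 4 of the 22 genes stood higher and 2 lower. The 15 genes of MHC class I presentation held 0 that stood apart.

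Secreted growth regulators were among the higher genes. Of 15 genes of the IGF system and its companions tested, 4 stood higher (3 under total count scaling) and 1 lower. STC1, the glycoprotein hormone stanniocalcin, had 5.84, 6.03 and 5.67 FPKM on day 1 and 14.3, 23.1 and 19.4 FPKM on day 14 (1.97 ± 0.33). IGFBP3, a carrier of IGFs, had 0.755 to 0.888 and 1.61 to 2.83 FPKM (1.72 ± 0.46). IGFBP6, a carrier with a preference for IGF2, was lower, with 184, 184 and 169 FPKM on day 1 and 68.3, 64.8 and 35.6 FPKM on day 14 (-1.41 ± 0.33). Members of one family of carriers thus lay on both sides.

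In the Wnt pathway 3 of 12 genes tested stood higher (2 under total count scaling) and 1 lower, with a median of 0.56. DKK1, a secreted inhibitor that is also a Wnt target, had 18.9, 18.5 and 15.6 FPKM on day 1 and 44.8, 36.9 and 45.3 FPKM on day 14 (1.53 ± 0.24). AXIN2, the feedback inhibitor used as a readout of beta-catenin, had 1.07 to 1.65 and 2.0 to 2.33 FPKM (0.88 ± 0.27). WNT5B, a ligand, had 3.13 to 3.47 and 1.07 to 1.56 FPKM (-1.01 ± 0.30). Among TGF-beta family ligands, 3 of 13 stood higher and 2 lower, and 0 stood higher and 2 lower under total count scaling, where the median of 0.04 turned to -0.22. BMP2, a bone-forming ligand, had 0.79 to 1.13 and 1.54 to 1.99 FPKM (1.08 ± 0.35), while of 14 BMP targets 0 stood apart, with a median of -0.25. Under total count scaling 2 of the BMP targets stood lower, 12 were negative and the median was -0.52. ID3, a direct target of BMP receptors, had 242 to 249.7 and 234 to 334 FPKM (0.41 ± 0.25).

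In energy metabolism few genes stood apart. Of 19 glycolytic genes tested, 1 stood higher and 0 lower. LDHA, the chain of lactate dehydrogenase that stood higher, had 82.7 to 86.5 FPKM on day 1 and 134 to 151 FPKM on day 14 (1.03 ± 0.19), just over 2-fold. Under total count scaling 0 stood higher and 1 lower, and the median turned from 0.20 to -0.07. The hypoxia list had a median of 0.08 that turned to -0.19 under total count scaling. It held 1 lower gene of 19 (2 under that scaling), against 12.1% of all genes tested. This was ANGPTL4, a secreted inhibitor of lipoprotein lipase, with 32.1, 34.8 and 32.9 FPKM on day 1 and 12.4, 5.01 and 6.67 FPKM on day 14 (-1.78 ± 0.46). VEGFA, the vascular growth factor and classical hypoxia target, had 16.7 to 18.3 and 7.09 to 8.63 FPKM (-0.85 ± 0.16). CA9, a hypoxia-induced carbonic anhydrase, was too low to be tested, with at most 0.0996 FPKM in any of the 6 libraries. None of 23 genes of cholesterol synthesis, 12 of fatty acid synthesis or 28 of the nuclear-encoded respiratory chain stood apart, and the medians of these 3 lists were 0.14, 0.43 and 0.44, the first of them -0.12 under total count scaling.

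Transcripts of the mitochondrial genome depended on day 14 replicate 3. Of 13 genes tested, 4 stood higher and 1 lower, and without that library 2 stood higher. MT-CO3, a subunit of cytochrome c oxidase, had 2004, 2047 and 2029.8 FPKM on day 1 and 3769, 3954 and 8758 FPKM on day 14 (1.73 ± 0.64). MT-ATP6, a subunit of ATP synthase encoded next to MT-CO3 on the same precursor, had 3033, 3011 and 2967 FPKM on day 1 and 603, 636 and 1459 FPKM on day 14 (-1.45 ± 0.55). These adjoining genes lay on opposite sides of 0. MT-ND4, a subunit of complex I, had 2848 to 2900.2 FPKM on day 1 and 2892, 3068 and 8012 FPKM on day 14, so that the excess was in replicate 3. Of the 4 metallothioneins and zinc exporters tested, 1 stood higher, MT1E, a metal-binding protein with close paralogs, at 42.5 to 43.8 and 69.4 to 112 FPKM (1.32 ± 0.29).

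Among all genes, the 15 that led on each side were picked as the largest differences among DEGs of the fit with 3 separate day 1 libraries, from genes detected in every library, with a mean of at least 1 FPKM on a day and no overlap. Of the 15 higher ones, 10 were protein-coding. SLC14A1, a urea transporter, had 0.154, 0.14 and 0.101 FPKM on day 1 and 5.12, 2.82 and 2.83 FPKM on day 14 (5.00 ± 0.54). POSTN, periostin, a matrix protein of bone and of healing tissue, had 0.0342 to 0.143 and 1.52 to 2.07 FPKM (4.89 ± 0.47). IL33, an alarmin cytokine, had 0.0192 to 0.267 and 0.826, 1.93 and 4.21 FPKM (4.64 ± 1.19). FOXA2, a forkhead factor, had 0.475 to 0.821 and 2.4 to 4.41 FPKM (2.66 ± 0.59). All 4 were below 1 FPKM on day 1.

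Of the 15 leading lower genes, 3 were protein-coding and 12 were not, among them 4 microRNA loci, 3 snoRNAs and 1 snRNA. At 8 of the 15, every day 14 library held at most 12 estimated counts, or 3 read pairs. For these 8 no fold is given. NGFR, the low-affinity neurotrophin receptor, at chr17:49495293-49515008, led the protein-coding genes, with 11.3, 10.4 and 10.8 FPKM on day 1 and 0.333, 0.48 and 0.254 FPKM on day 14 (-4.66 ± 0.34).

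The cell type was checked against its markers. Saos-2 is known as an osteoblast-like line with strong alkaline phosphatase. Of the 12 osteoblast markers listed, SPARC, a collagen-binding protein of bone and many other tissues, was high, at 122.2 to 128.5 FPKM on day 1 and 137.6 to 166.5 FPKM on day 14. RUNX2, the master factor of the lineage, had 1.62, 0.61 and 1.36 FPKM on day 1 and 0.76, 0.732 and 1.54 FPKM on day 14 (0.04 ± 0.54). The defining markers were at or near 0 on both days, with at most 0.148 FPKM for ALPL, the alkaline phosphatase, 0.0745 FPKM for SP7, the factor osterix, and 0.0802 FPKM for IBSP, bone sialoprotein. Over all 18 libraries ALPL did not exceed 0.148 FPKM. These 3 markers do not bear out the name of the line, which is taken from the labels and the paper. Of 14 genes of the osteoblast lineage tested, 3 stood higher (2 under total count scaling) and 1 lower, and the median of 0.16 turned to -0.12 under total count scaling.

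Lists of markers of other cell types were checked for a difference between the days. The summed deposited FPKM of endothelium, skeletal muscle and keratinocyte markers was lower on day 14 without overlap. After TMM scaling, the 3 endothelial genes tested had a median log2 fold change of 0.08. KRT10 had 0.01, while KRT14, the other keratinocyte gene tested, was at 0 FPKM on day 14. DES, the 1 skeletal muscle gene tested, had -1.29. The summed FPKM of 8 endothelial markers was 5.4 to 6.64 on day 1 and 4.3 to 4.92 on day 14, that of 8 skeletal muscle markers 0.968 to 1.6 and 0.301 to 0.438, and that of 8 macrophage markers 61.1 to 88.7 and 47.8 to 117, of which CD68, a lysosomal protein, made up nearly all. The macrophage-defining PTPRC was at most 0.0625 FPKM and AIF1 was listed at 0 in the 6 libraries. The 8 adipocyte markers summed to 9.53 to 11 on day 1 and 10.4 to 17.9 FPKM on day 14, the 8 chondrocyte markers to 19.9 to 20.6 and 19.3 to 26.8 FPKM, mostly SOX9, and the 7 keratinocyte markers found to 23.2 to 24 and 16.3 to 22.3 FPKM, mostly KRT10. The part of these markers in the other differences was not tested.

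The other groups give a scale for the stress genes. They share no sample with DP-3, and no test was made. DDIT4 had a median of 3.56 FPKM in D-2, 95.2 in D-3, 44.7 in IT and 14.2 in FIT, so that its day 14 level in DP-3 lay nearest to D-2, and its day 1 level of 52.3 to 55.6 FPKM lay within the 12.1 to 75.0 FPKM of IT. DDIT3 had medians of 4.77, 112, 36.2 and 9.61 FPKM in the same order. HMOX1 had medians of 33.5 FPKM in D-2, 139 in D-3, 66.3 in IT and 13.35 in FIT, all below the 248 to 280.2 FPKM of DP-3 on day 1. HSPA6 reached at most 3.69 FPKM in any library of the other groups, against 8.76 to 10.3 FPKM in DP-3 on day 1.

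The genes that were higher on day 14 were placed in another way. CCN2 had a median of 225 FPKM in D-2 but 26.96 in D-3, 61.1 in IT and 47.1 in FIT, so that only D-2 lay above DP-3 on day 14. FOXM1 had medians of 52.4, 16.8, 10.95 and 37.6 FPKM in D-2, D-3, IT and FIT. MMP13 reached at most 2.87 FPKM in any library of the other groups, and each DP-3 library of day 14 lay above that, at 3.94 to 7.37 FPKM. CXCL8 in D-3 had a median of 18.1 FPKM, above the 9.78 to 13.2 FPKM of DP-3 on day 14, and FN1 in FIT a median of 1347 FPKM, within its range.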

How the data were processed

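Poly(A) RNA of printed tissue (DP-3), of the line given as Saos-2, was sequenced in 3 libraries of day 1 and 3 of day 14. Per the submitters' processing notes, the authors used cutadapt 1.9, HISAT2 2.0.4 and StringTie 1.3.4d, and also name DESeq2 and edgeR. The genome build is not given in the sources used here. The deposited FPKM values are scaled by the authors to gene length and library total. The deposited estimated counts are whole numbers from the authors' assembly step, with about 4 per read pair. Being coverage-like, they overstate the reads behind a value. A detection limit of 12 estimated counts (3 read pairs) lay at 0.155 to 0.238 CPM, covering counting error only.

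The 3 day 1 libraries, which were planned as separate samples, were counted as 1 sample after their spread had been seen. The main test was edgeR's quasi-likelihood test (edgeR 4.0.16, R 4.3.3) with TMM scaling on genes of at least 0.1 FPKM in at least 3 of the 6 libraries, with Benjamini-Hochberg adjustment. The SE of a log2 fold change was its size divided by the square root of F. DESeq2 1.42.0 and limma 3.58.1 were alternatives. With day 1 as 1 sample, its spread is not measured and is assumed to be that of day 14.

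The gene lists and members were chosen with earlier results of these data known. The first 2 genes of each list were named whatever their values. Others were DEGs of the fit with separate day 1 libraries, without overlap and with a mean of at least 1 FPKM on a day. Of these, up to 3 per list and direction and the 15 largest differences in each direction were taken. PLK1 was added after its values were seen. Promoter sequences are RefSeq windows of 250 bases before to 50 after a start on GRCh38.p14, and gene positions are as the files give them.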

Additional observations from a re-analysis of the deposited data

How the results depend on the processing

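With day 1 counted once, edgeR called 0 DEGs in either direction, but DESeq2 called 328 higher and 363 lower, and the cause was not tested. Counts divided by 4 gave 4 lower and protein-coding genes alone 2 lower. A fit of all 18 libraries gave 31 higher and 180 lower with edgeR's newer dispersion method and 151 and 239 with DESeq2, both added after the data were seen. With the 3 day 1 libraries as separate samples, also added, edgeR called 375 and 1196 and DESeq2 479 and 1562. In that edgeR fit, leaving out day 14 replicate 1, 2 or 3 gave 357, 375 and 359 higher and 965, 1023 and 1207 lower, and leaving out day 1 replicate 1, 2 or 3 gave 266, 277 and 267 higher and 579, 581 and 533 lower.

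Of genes 2-fold apart without overlap, 497 stood higher and 2504 lower. limma gave 219 higher with a pseudocount of 0.1, and 72 higher and 469 lower with a pseudocount of 1. Total count scaling gave 281 higher. No filter gave 6059 lower, a minimum of 1 FPKM gave 210 and 797, and protein-coding genes alone gave 246 and 1070, each over a different number of genes tested.

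The deviations of same-numbered libraries from the day means correlated at 0.0386, 0.0165 and 0.0227. Because the day 1 libraries differed by about the noise of sampling, these values cannot tell whether replicate numbers pair the libraries. With the replicate block and separate day 1 libraries, edgeR called 287 higher and 651 lower.

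Over 103 printed genes and 3086 values under other settings, 17 changed sign, all of MKI67 and RUNX2. Under limma with pseudocounts of 0.1 and 1, total count scaling and a minimum of 1 FPKM, the MKI67 log2 fold change was -0.17, -0.159, -0.155 and -0.002, and the RUNX2 log2 fold change -0.301, -0.153, -0.245 and -0.062. RUNX2 was at -0.041 among protein-coding genes. Without 1 library, MKI67 ranged from -0.167 to 0.282, with -0.01 without day 14 replicate 2, and RUNX2 from -0.445 to 0.324, with -0.274 without day 1 replicate 2. With separate day 1 libraries the negative values were -0.009 and -0.159 for MKI67 and -0.45 and -0.276 for RUNX2. Leaving out 1 library moved the counts of the mitosis, ATF4, NRF2 and unfolded protein response lists by less than 1.5 times. Other lists of few separated genes, such as heat shock proteins, YAP and TEAD targets, Wnt, collagens, integrins and cell cycle brakes, gained or lost 1 or 2 genes. Depth limits what can be said of genes near 12 estimated counts.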
